A study of Homo sapiens with 9 samples.

Results

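RNA levels of 39 DNA repair and damage checkpoint genes were described in MCF10A cells, an established line of non-tumour human mammary epithelial cells that grows as basal-type epithelium. The genes were given as a list of symbols: homologous recombination genes, Fanconi anaemia genes, nucleases and helicases that process recombination junctions, mismatch and base excision repair genes, checkpoint kinases, and proteins that mark and trim broken DNA ends. A gene was measured through the array's transcript cluster that carries its symbol alone, and 34 of the 39 members had such a cluster, among 18404 genes in all. BRCA2, FANCA, FANCD2, RBBP8 and ATRIP were not analysed here.

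The study compared 3 groups of MCF10A cells with 3 whole-transcript arrays each, 9 arrays in all. Control cells are named parental in the sample labels and empty vector in the series' design text. WT-HER2 cells expressed wild-type HER2, the receptor tyrosine kinase that the ERBB2 gene encodes, and Delta-HER2 cells expressed a second form of HER2 named only in that way. Every group was grown in DMEM/F12 with 5% horse serum, 20 ng/ml EGF, hydrocortisone, cholera toxin and insulin. Before RNA extraction with TRIzol, the cells spent 16 hours in DMEM/F12 to which only antibiotics had been added, so each group was measured without serum and without added EGF. The promoter that drove HER2, and whether a line was a clone or a pool of cells, are not given in the sources used here. Nothing in the labels ties the replicates to cultures of their own, and p-values here therefore cover only the spread between these samples, which may be technical.

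Cells repair broken DNA by copying an intact sister molecule (homologous recombination), by joining the ends directly, or by annealing short matching stretches (theta end joining). BRCA1, BARD1 and PALB2 act on resected ends in recombination, the Fanconi anaemia proteins unhook crosslinked strands at stalled forks, and ATR and ATM signal damage to CHEK1 and CHEK2, which hold the cell cycle. Many of these genes are transcribed mainly in cells that are copying their DNA, when the sister molecule is at hand.

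Each value below is a level on the log2 scale, so a difference of 1 is a doubling. Background was gauged from 359 genes with olfactory receptor symbols, whose median level was 2.41, and 95% of which lay under 3.18. All 34 measured members had at least 1 group mean above that bound. Levels come from different probes in different genes, so only differences of a gene between groups are compared. In bulk RNA, a higher level per cell and a larger share of cells that express a gene cannot be told apart.

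ERBB2 was higher than control in both HER2 groups, as labelled, with means of 6.99 in control, 7.98 with WT-HER2 and 8.95 with Delta-HER2. No array of a group overlapped those of another. ERBB2 RNA was thus also higher with Delta-HER2 than with WT-HER2. Between these groups the form of HER2 and its RNA level cannot be told apart. The basal markers KRT5, KRT14, CDH3, LAMB3, ITGB4 and EGFR lay between 8.69 and 11.8 in every group mean. KRT17 and TP63, also listed, had no transcript cluster that carried their symbol alone. Of the 6 measured, 1 was called higher and 1 lower than control with WT-HER2, at differences from -0.68 to 0.38. With Delta-HER2 these counts were also 1 and 1, at differences from -0.46 to 0.45. Between Delta-HER2 and WT-HER2 1 was higher and 2 were lower. Of the other cell types' markers, ESR1, PGR, LUM, PDGFRA, PTPRC, CD3E, HBB, CDH5, VWF, KDR and TEK stayed under the background bound in every group mean. CD14, CD68, DCN, COL1A1, COL1A2, COL3A1, PDGFRB, GATA3 and FOXA1 were above it in every group. Several markers of other cell types also passed the test (limma). With Delta-HER2 against control, PECAM1 rose by 0.90, from 3.00 to 3.90, and CD68 rose by 0.58, while GATA3 differed by -1.02, COL1A1 by -0.44 and KDR by -0.36. With WT-HER2 against control, DCN rose by 0.58 and CD68 by 0.76. The part of these markers in the results was not tested. Control replicate 1 and WT-HER2 replicate 3 stood apart from the other arrays of their groups on the second principal component. Control replicate 1 was the lowest control array for 22 of the 34 members, WT-HER2 replicate 3 the lowest of its group for 25, and Delta-HER2 replicate 2 the lowest of its group for 28. In the same order, they were the lowest of their groups for 41%, 39.3% and 41.6% of all genes. Counts without the first pair of these arrays are given beside the main counts.

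With Delta-HER2, most measured members rose: 24 of 34 were higher than in control, 2 were lower (FANCE and TP53BP1), and 8 did not pass the test (limma, Benjamini-Hochberg adjusted p below 0.05 over 18404 genes). Among all genes 13.6% were called higher, 11.7% lower and 25.4% in either direction. All genes include many that stayed under the background bound. Among the 13669 genes with some group mean above it, tested alone, 2548 were called higher and 2212 lower. In that setting 24 of the 34 members were higher and 2 lower. A gene could pass this filter through its Delta-HER2 mean alone, as BLM and FANCB did. The filter is therefore not independent of the comparison, and no conclusion is drawn from these counts. The median difference of the 34 members was 0.66, against -0.01 over all genes. The Delta-HER2 arrays lay wholly above or wholly below the control arrays for 27 of the 34 members (79.4%), above for 25 of them (73.5%), against 37.0% and 19.2% of all genes. The median level of the 34 members on an array ranged from 4.60 to 4.83 over the control arrays, from 4.60 to 4.83 over the WT-HER2 arrays and from 5.73 to 5.90 over the Delta-HER2 arrays. Leaving out control replicate 1 and WT-HER2 replicate 3 together also gave 26 called members against control, and leaving out any single array gave 20 to 27. Of all 18404 genes, 5402 were called in the former setting and 3805 to 5097 in the latter.

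Against WT-HER2, 25 members were higher with Delta-HER2, 1 was lower (FANCE) and 8 did not pass. Over all genes 13.4% were higher, 9.35% lower and 22.8% called in either direction. Among the 13669 genes with some group mean above the background bound, tested alone, 2531 were higher and 1786 lower. Here too a gene could pass the filter through its Delta-HER2 mean alone. The median member difference was 0.77 against -0.04 over all genes. Leaving out control replicate 1 and WT-HER2 replicate 3 together gave 25 called members, 24 higher and 1 lower, and 4554 called among all 18404 genes. This comparison uses the same Delta-HER2 arrays as the comparison with control, so the values of both are given side by side and are not separate evidence.

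With WT-HER2 none of the 34 members passed the test against control (limma), and 2 members, ATR and FANCM, had an unadjusted p below 0.05. Over all genes 0.777% were called higher, 0.902% lower and 1.68% in either direction, and 11.2% had an unadjusted p below 0.05. The median member difference was -0.0022, and the arrays of the 2 groups did not overlap for 3 members (8.82%, against 14.0% of all genes): ATR and FANCM, lower with WT-HER2, and RMI1, higher. Each of 2 settings that reduce the weight of the arrays that stood apart called 2 members. Of all genes, array weights called 736, and leaving out both arrays called 294. With array weights, EXO1 differed by 0.54 (adjusted p = 0.0173) and ATR by -0.46 (adjusted p = 0.0172). Without control replicate 1 and WT-HER2 replicate 3, EXO1 differed by 0.62 (adjusted p = 0.0183) and ATR by -0.48 (adjusted p = 0.0467). Over all alternatives the adjusted p of this comparison ranged from 0.0173 to 0.865 for EXO1 and from 0.0172 to 0.524 for ATR.

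**Figure D1:**
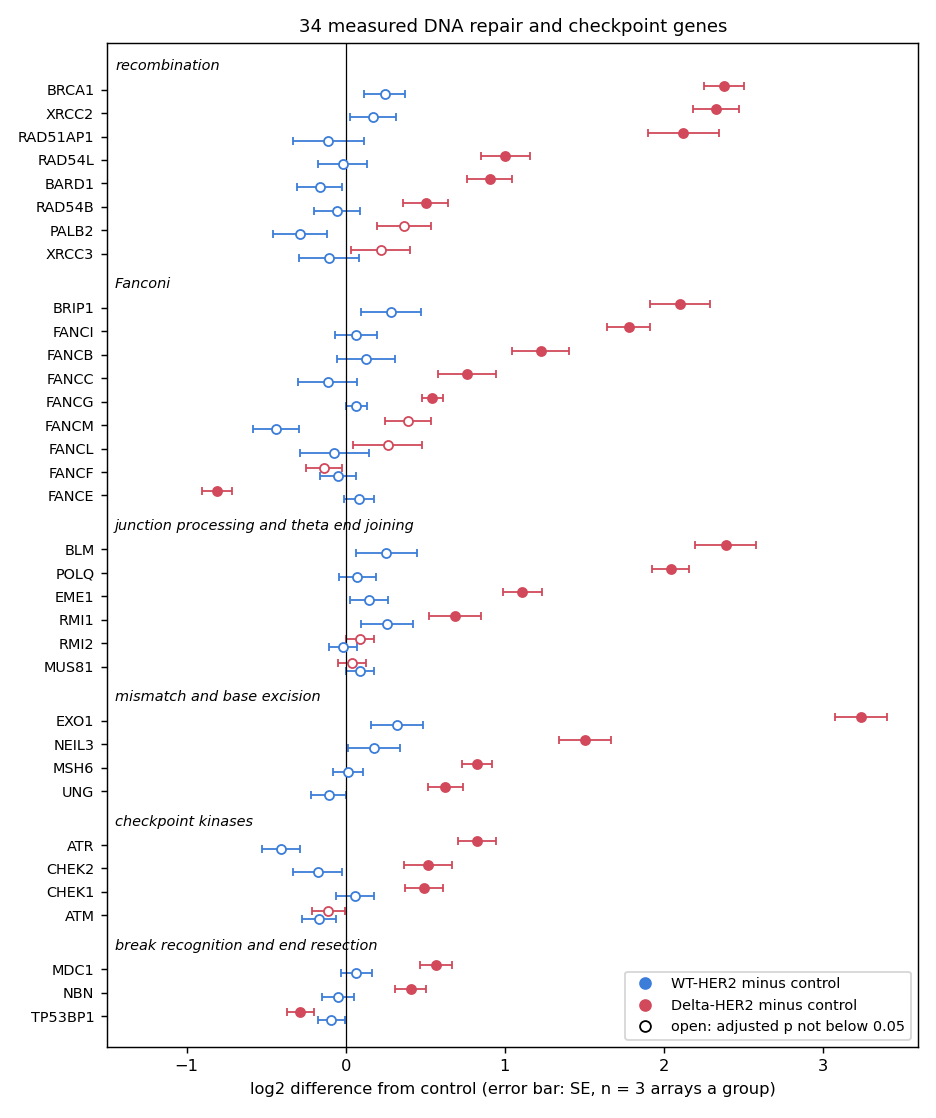
Difference from control in log2 units (x axis) of each of the 34 measured members (y axis, ordered by role), with WT-HER2 in blue and Delta-HER2 in red; error bars are SE with 3 arrays a group, and open points have an adjusted p of 0.05 or more. The blue points are all open and near 0, while 24 red points are filled to the right of 0 and 2 to the left.

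Most recombination genes rose. Of 8 measured, 6 were higher with Delta-HER2 than in control (75%, against 13.6% of all genes), 0 were lower and 2 did not pass. The median difference was 0.95, against -0.01 over all genes. Against WT-HER2 7 were higher (87.5%, against 13.4% of all genes), 0 lower and 1 did not pass, with a median of 1.04.

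BRCA1 (transcript cluster 8015769, Entrez gene 672), the ubiquitin ligase and scaffold of recombination, read 3.54, 3.52 and 3.71 on the control arrays. It read 3.86, 4.03 and 3.62 with WT-HER2 and 6.17, 5.79 and 5.95 with Delta-HER2. The control and WT-HER2 arrays overlapped, and every Delta-HER2 array was above both groups. The difference from control was 2.38 (SE 0.13, 5.20-fold, limma adjusted p = 1.474e-06), and WT-HER2 was exceeded 4.39-fold (adjusted p = 3.659e-06). BARD1, the partner that BRCA1 needs for its ligase activity, moved less. It read 4.09, 4.53 and 4.55 in control, 4.16, 4.23 and 4.29 with WT-HER2, and 5.45, 5.05 and 5.39 with Delta-HER2, a difference from control of 0.91 (SE 0.14, adjusted p = 0.00112).

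XRCC2 (cluster 8144036, Entrez gene 7516) acts in homologous recombination. Its control arrays read 3.74, 3.96 and 4.10, its WT-HER2 arrays 4.21, 4.09 and 4.02, and its Delta-HER2 arrays 6.41, 5.93 and 6.44. The Delta-HER2 arrays were again clear of the rest, with a mean 2.32 above control (SE 0.14, 5.01-fold, limma adjusted p = 3.67e-06) and 2.16 above WT-HER2 (adjusted p = 7.412e-06). XRCC3, another recombination gene, showed no such separation: its groups overlapped, and the difference from control was 0.22 (95% interval -0.20 to 0.64, adjusted p = 0.504).

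RAD51AP1, which stimulates strand pairing in recombination, read 2.96, 3.49 and 3.62 in control, 3.51, 3.35 and 2.87 with WT-HER2, and 5.79, 5.18 and 5.46 with Delta-HER2. The lowest control array and the lowest WT-HER2 array were under the background bound, and these are the arrays that stood apart. The difference from control was 2.12 (SE 0.22, 4.35-fold, adjusted p = 9.144e-05). RAD54L, a motor protein that moves along DNA during recombination, rose from 3.71, 3.48 and 3.47 to 4.27, 4.50 and 4.89, with 3.39, 3.52 and 3.70 in WT-HER2. Its difference from control was 1.00 (SE 0.15, adjusted p = 9.217e-04), with no overlap between Delta-HER2 and either other group.

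RAD54B, a paralog of RAD54L, differed by 0.50 from control (SE 0.14, adjusted p = 0.0289) and by 0.56 from WT-HER2 (adjusted p = 0.0200). Against control, this did not hold without control replicate 1 (0.36, adjusted p = 0.0778), control replicate 2 (adjusted p = 0.0687), or Delta-HER2 replicate 1 (0.0712), 2 (0.0564) or 3 (0.105). The call against control was also lost with quantile normalization (limma adjusted p = 0.0524) and with the replicate number as a block (0.0685). Over the alternatives its adjusted p ranged from 0.00854 to 0.105. The call against WT-HER2 was lost without Delta-HER2 replicate 1 (adjusted p = 0.0550) or 3 (0.0785), or WT-HER2 replicate 2 (0.0580) or 3 (0.0609), within a range of 0.00543 to 0.0785. The replicate block ended that call too (limma adjusted p = 0.0531).

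PALB2, which links BRCA1 to BRCA2, read 5.57, 5.79 and 5.74 in control, 5.73, 5.51 and 5.00 with WT-HER2, and 6.21, 5.90 and 6.08 with Delta-HER2. Every Delta-HER2 array was above every other array, by a small margin. The difference from control was 0.36 (adjusted p = 0.173), and that from WT-HER2 was 0.65 (adjusted p = 0.0213). The lowest WT-HER2 value came from replicate 3: without that array the difference from control passed the test (adjusted p = 0.0294, range over the alternatives 0.0294 to 0.407). Against WT-HER2 the call was lost without Delta-HER2 replicate 1 (adjusted p = 0.0849) or 3 (0.0678), in a range from 0.00551 to 0.0849. It was also lost with only the 2 groups compared (limma adjusted p = 0.0564).

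**Figure D2:**
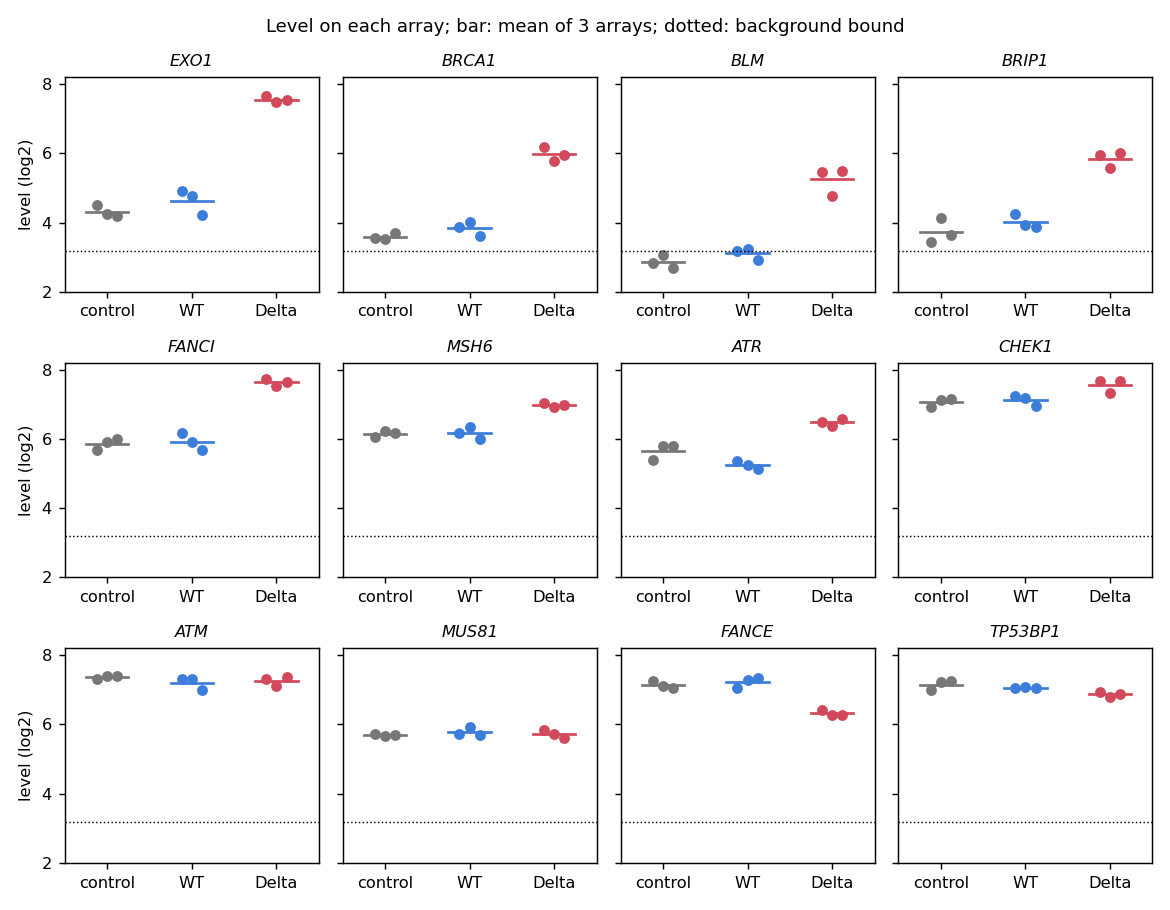
Level on each array in log2 units (y axis) of 12 members in the control, WT-HER2 and Delta-HER2 groups (x axis); points are arrays, bars are means of 3 arrays and the dotted line is the background bound of 3.18. EXO1, BRCA1, BLM, BRIP1 and FANCI have all Delta-HER2 arrays far above the other groups, ATM and MUS81 overlap, and FANCE is lower with Delta-HER2.

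The Fanconi anaemia group was mixed. Of 9 measured genes, 5 were higher with Delta-HER2 than in control, 1 was lower and 3 did not pass, with a median difference of 0.55. These are 55.6% higher and 11.1% lower, against 13.6% and 11.7% of all genes. Against WT-HER2 6 were higher (66.7%, against 13.4% of all genes), 1 was lower and 2 did not pass, with a median of 0.83. The genes of the core complex, which attaches ubiquitin to FANCD2 and FANCI, did not move as a block.

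BRIP1 (cluster 8017262, Entrez gene 83990), the BRCA1-associated helicase also known as FANCJ, read 3.43, 4.12 and 3.65 in control, 4.24, 3.93 and 3.88 with WT-HER2, and 5.94, 5.56 and 6.01 with Delta-HER2. The difference from control was 2.10 (SE 0.19, 4.30-fold, adjusted p = 3.064e-05) and from WT-HER2 1.82 (adjusted p = 9.787e-05). FANCI (cluster 7985829, Entrez gene 55215), which pairs with FANCD2 at crosslinks, read 5.67, 5.91 and 5.99 in control, 6.17, 5.91 and 5.68 with WT-HER2, and 7.74, 7.51 and 7.65 with Delta-HER2. Its Delta-HER2 mean lay 1.78 above control (SE 0.13, 3.43-fold, limma adjusted p = 1.014e-05), with no overlap of arrays.

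Within the core complex, FANCB rose from 2.67, 3.03 and 2.95 to 4.25, 3.66 and 4.42. The control and WT-HER2 means of FANCB were under the background bound, so the fitted difference of 1.23 (SE 0.18, adjusted p = 7.45e-04) starts from a level that cannot be told from background. FANCG rose little but evenly, from 5.03, 5.06 and 5.16 in control and 5.14, 5.15 and 5.16 with WT-HER2 to 5.63, 5.67 and 5.59. Its difference from control was 0.55 (SE 0.06, adjusted p = 1.743e-04). FANCC differed by 0.76 (SE 0.18, adjusted p = 0.0127). FANCC fell short of the threshold when control replicate 3 was left out (adjusted p = 0.0534), and likewise Delta-HER2 replicate 1 (0.0571) or 3 (0.0506), in a range over the alternatives from 0.00157 to 0.0571.

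FANCE (cluster 8118963, Entrez gene 2178), the core complex subunit that binds FANCD2, went the other way. Control arrays read 7.26, 7.10 and 7.06, WT-HER2 arrays 7.05, 7.27 and 7.33, and Delta-HER2 arrays 6.43, 6.27 and 6.28. Every Delta-HER2 array was below every other array. The fitted difference of means was -0.81 from control (SE 0.10, 1.75-fold lower, limma adjusted p = 1.771e-04) and -0.89 from WT-HER2 (adjusted p = 1.187e-04). FANCF, the adaptor of the core complex, differed by -0.14 from control (95% interval -0.39 to 0.12, adjusted p = 0.486). FANCL, its ubiquitin ligase, differed by 0.26 (95% interval -0.23 to 0.76, adjusted p = 0.495).

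FANCM, the translocase that anchors the core complex to DNA, differed between WT-HER2 and Delta-HER2. It read 4.48, 4.48 and 4.55 in control, 4.21, 4.07 and 3.92 with WT-HER2, and 5.03, 4.54 and 5.12 with Delta-HER2. The WT-HER2 arrays were below every control array, at a difference of -0.44 (adjusted p = 0.251), and the Delta-HER2 difference from control was 0.39 (adjusted p = 0.0811). The difference between Delta-HER2 and WT-HER2 was 0.83 (adjusted p = 0.00230). Without Delta-HER2 replicate 2, whose value was next to the controls, the difference from control was 0.57 (adjusted p = 0.00336, range over the alternatives 0.00336 to 0.268).

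Of the 6 genes of junction processing and theta end joining, 4 were higher with Delta-HER2 than in control (66.7%, against 13.6% of all genes). The other 2 did not pass, and the median difference was 0.90. Against WT-HER2 3 were higher (50%, against 13.4% of all genes) and 3 did not pass, with a median of 0.70.

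BLM (cluster 7986068, Entrez gene 641), the RecQ helicase that dissolves double Holliday junctions, read 2.83, 3.07 and 2.68 in control, 3.19, 3.23 and 2.92 with WT-HER2, and 5.46, 4.78 and 5.50 with Delta-HER2. The control and WT-HER2 means were under the background bound, and the Delta-HER2 arrays were all well above it. The fitted difference from control was 2.39 (SE 0.19, 5.23-fold, adjusted p = 1.509e-05), and that from WT-HER2 was 2.13 (adjusted p = 4.069e-05). RMI1 and RMI2 are the partners of BLM in the dissolvasome. RMI1 read 4.13, 4.56 and 4.50 in control, 4.67, 4.67 and 4.61 with WT-HER2, and 5.40, 4.75 and 5.10 with Delta-HER2. Its 3 groups did not overlap, and the Delta-HER2 difference was 0.69 from control (adjusted p = 0.0116) and 0.43 from WT-HER2 (adjusted p = 0.0961). Without Delta-HER2 replicate 2 the latter was 0.60 (adjusted p = 0.0200, range over the alternatives 0.0195 to 0.307). RMI2 differed by 0.09 from control (95% interval -0.11 to 0.29, adjusted p = 0.570).

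EME1 and MUS81 together form a nuclease that cuts branched DNA, and their values parted. EME1 read 3.38, 3.11 and 3.06 in control, 3.38, 3.28 and 3.33 with WT-HER2, and 4.29, 4.08 and 4.52 with Delta-HER2, a difference from control of 1.11 (SE 0.12, 2.16-fold, adjusted p = 1.089e-04). The control mean of EME1, 3.183, was barely above the background bound of 3.181, so this difference starts near background. MUS81, the catalytic subunit, read 5.72, 5.66 and 5.68 in control, 5.72, 5.91 and 5.70 with WT-HER2, and 5.85, 5.72 and 5.61 with Delta-HER2. The groups of MUS81 overlapped, and its difference from control was 0.04 (95% interval -0.16 to 0.23, adjusted p = 0.850).

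POLQ (cluster 8089875, Entrez gene 10721), the polymerase of theta end joining, read 2.96, 3.13 and 3.33 in control, 3.10, 3.27 and 3.27 with WT-HER2, and 5.28, 4.99 and 5.28 with Delta-HER2. The control mean was under the background bound and the WT-HER2 mean at 3.21 was barely above it. The fitted difference from control was 2.04 (SE 0.12, 4.12-fold, adjusted p = 2.295e-06), and from WT-HER2 1.97 (adjusted p = 3.659e-06).

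All 4 members of mismatch and base excision repair were higher with Delta-HER2, against control (median 1.16) and against WT-HER2 (median 1.07). Over all genes 13.6% and 13.4% were called higher in these comparisons. EXO1 (cluster 7910997, Entrez gene 9156), the exonuclease that removes the mismatched strand and also resects broken ends, had the largest difference of the 34 members. Control arrays read 4.50, 4.25 and 4.19, WT-HER2 arrays 4.90, 4.78 and 4.22, and Delta-HER2 arrays 7.65, 7.47 and 7.53. The Delta-HER2 arrays lay close together and far above the rest. The difference was 3.24 from control (SE 0.16, 9.45-fold, adjusted p = 1.085e-06) and 2.92 from WT-HER2 (7.56-fold, adjusted p = 2.742e-06). 

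MSH6 (cluster 8041888, Entrez gene 2956), a mismatch recognition subunit, read 6.05, 6.24 and 6.17 in control, 6.17, 6.33 and 6.01 with WT-HER2, and 7.03, 6.92 and 6.99 with Delta-HER2. Its difference from control was 0.83 (SE 0.09, 1.77-fold, adjusted p = 1.431e-04). UNG, the glycosylase that removes uracil from DNA, rose from 5.58, 5.56 and 5.72 to 6.34, 6.32 and 6.07, by 0.62 (SE 0.11, adjusted p = 0.00215). NEIL3, a glycosylase of oxidised bases that also unhooks some crosslinks, rose from 4.12, 4.54 and 4.75 to 6.16, 6.00 and 5.75, by 1.50 (SE 0.16, adjusted p = 1.092e-04). With WT-HER2, UNG read 5.61, 5.61 and 5.30 and NEIL3 read 4.70, 4.75 and 4.49, each overlapping control.

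Of the 4 checkpoint kinases measured, 3 were higher with Delta-HER2 than in control (75%, against 13.6% of all genes). The remaining 1, ATM, did not pass, and the median difference was 0.50. The counts against WT-HER2 were also 3 higher (75%, against 13.4% of all genes) and 1 not passed, with a median of 0.56. ATR (cluster 8091190, Entrez gene 545), which responds to stalled forks and single-stranded DNA, read 5.39, 5.79 and 5.79 in control, 5.37, 5.24 and 5.13 with WT-HER2, and 6.50, 6.38 and 6.57 with Delta-HER2. The 3 groups did not overlap, with WT-HER2 lowest and Delta-HER2 highest. Delta-HER2 was 0.83 above control (SE 0.12, adjusted p = 6.209e-04) and 1.23 above WT-HER2 (SE 0.12, 2.35-fold, adjusted p = 6.258e-05). WT-HER2 differed from control by -0.41 (adjusted p = 0.180). Without control replicate 1, the lowest control array, that difference was -0.54 (adjusted p = 0.0341, range over the alternatives 0.0172 to 0.524).

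ATM, the kinase that responds to broken ends, overlapped between the groups. It read 7.30, 7.41 and 7.39 in control, 7.30, 7.30 and 6.99 with WT-HER2, and 7.30, 7.11 and 7.36 with Delta-HER2, a difference from control of -0.11 (95% interval -0.34 to 0.12, adjusted p = 0.564).

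CHEK1, the kinase downstream of ATR, read 6.91, 7.12 and 7.16 in control, 7.24, 7.17 and 6.95 with WT-HER2, and 7.67, 7.33 and 7.66 with Delta-HER2. It was 0.49 above control (SE 0.12, adjusted p = 0.0133) and 0.43 above WT-HER2 (adjusted p = 0.0274). Without Delta-HER2 replicate 1 or 3 the calls were lost, against control (adjusted p = 0.0580 and 0.0567, range 0.00131 to 0.0580) and against WT-HER2 (0.106 and 0.103, range 0.00534 to 0.106). The call against WT-HER2 was also lost without WT-HER2 replicate 2 (0.0561) or 3 (0.0798), and without both arrays that stood apart (0.0562). Comparing only the 2 groups (limma adjusted p = 0.0514) or taking the replicate number as a block (0.0689) ended that call too. CHEK2, the kinase downstream of ATM, read 3.98, 4.01 and 3.95 in control, 4.19, 3.74 and 3.48 with WT-HER2, and 4.57, 4.40 and 4.52 with Delta-HER2. It differed by 0.52 from control (SE 0.15, adjusted p = 0.0328) and by 0.69 from WT-HER2 (adjusted p = 0.00877). Against control, removing control replicate 1 (adjusted p = 0.0743), 2 (0.0789) or 3 (0.0942) ended the call, as did removing Delta-HER2 replicate 1 (0.108), 2 (0.0562) or 3 (0.0949), in a range from 0.00166 to 0.108. Quantile normalization ended it as well (limma adjusted p = 0.0614).

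The 3 measured genes of break recognition changed in both directions with Delta-HER2: 2 were higher than in control and 1 was lower. Over all genes 13.6% were called higher and 11.7% lower. MDC1, the scaffold that binds phosphorylated histone H2AX at breaks, read 5.26, 5.39 and 5.55 in control, 5.47, 5.47 and 5.44 with WT-HER2, and 6.10, 5.80 and 6.00 with Delta-HER2. Its difference from control was 0.57 (SE 0.10, adjusted p = 0.00198). NBN, a subunit of the MRE11 nuclease complex, differed by 0.41 (SE 0.10, adjusted p = 0.0136), and this call was lost without Delta-HER2 replicate 1 (0.0586) or 3 (0.0570), in a range from 0.00201 to 0.0586.

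TP53BP1, which shields broken ends from resection and favours direct joining, read 6.98, 7.22 and 7.25 in control, 7.05, 7.08 and 7.05 with WT-HER2, and 6.94, 6.78 and 6.87 with Delta-HER2. The Delta-HER2 arrays were the lowest, with control replicate 1 just above them. The difference was -0.29 from control (SE 0.08, adjusted p = 0.0334) and -0.20 from WT-HER2 (adjusted p = 0.142). Against control, the call ended on removing control replicate 2 (adjusted p = 0.118) or 3 (0.123), Delta-HER2 replicate 2 (0.113) or 3 (0.0826), or WT-HER2 replicate 1 (0.0506) or 2 (0.0507), in a range from 0.00251 to 0.123. It also ended with only the 2 groups compared (limma adjusted p = 0.0632) and with the replicate number as a block (0.079).

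**Figure D3:**
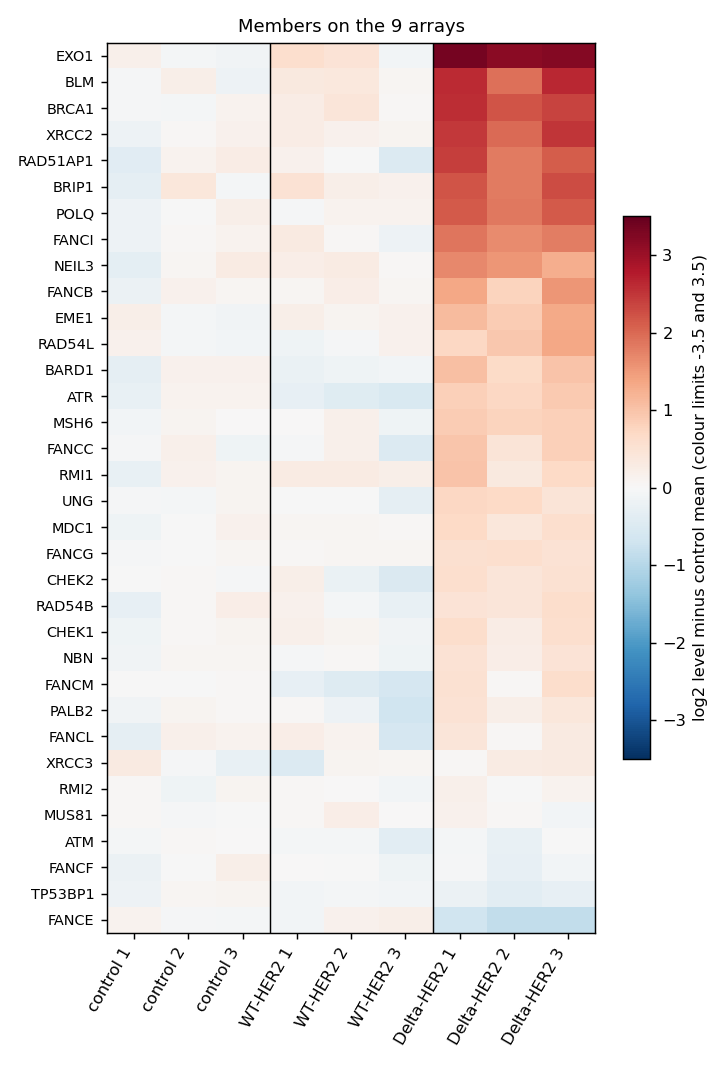
Level of each of the 34 measured members (rows, ordered by the Delta-HER2 difference) on each of the 9 arrays (columns) as a difference from the control mean in log2 units, in red where higher and blue where lower. The Delta-HER2 columns are red from EXO1 down to NBN, and FANCE at the bottom is blue in all of them.

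Markers of dividing cells moved with the members. Of 9 cell cycle indicators, 8 were higher with Delta-HER2 than in control (88.9%, against 13.6% of all genes). The median difference was 1.58, and E2F1 at 0.18 did not pass (limma adjusted p = 0.382). MKI67, the proliferation antigen, differed by 1.54, PCNA, the replication clamp, by 1.46, MCM2, a subunit of the replicative helicase, by 2.00, and the cyclin gene CCNE2 by 2.28, from a control mean of 2.92 that lies under the background bound. Against WT-HER2 8 of the 9 were higher as well (88.9%, against 13.4% of all genes), with a median of 1.51. With WT-HER2 against control, 0 of the 9 passed the test (limma), and the median difference was 0.15. An unadjusted p below 0.05 was found for 4 of them (44.4%, against 11.2% of all genes). The part of these genes' difference in the members' difference was not tested.

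Other repair and checkpoint genes, from 8 lists, included genes called in both directions. Some lists extend the pathways of the members, but nucleotide excision repair, direct end joining and translesion synthesis have no group among the members. Of 99 measured, 30 were higher with Delta-HER2 than in control, 9 were lower and 60 did not pass, with a median difference of 0.18. Their share of higher calls, 30.3%, compares with 70.6% of the 34 members and 13.6% of all genes. Against WT-HER2 32 were higher and 7 lower, with a median of 0.16. These are 32.3% and 7.07%, against 13.4% and 9.35% of all genes. With WT-HER2 against control 0 of the 99 passed (limma), and 6 had an unadjusted p below 0.05 (6.06%, against 11.2% of all genes). No test was made between the lists and the members, which were chosen with earlier results of these data known.

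The list of checkpoint clamp, mediators and effectors had 8 higher and 0 lower of 17. CLSPN, the mediator that ATR needs to activate CHEK1, had the largest difference among them. It rose from 3.20, 2.60 and 2.80 in control and 2.68, 3.02 and 2.72 with WT-HER2 to 5.85, 5.42 and 5.85, a fitted difference from control of 2.84 (adjusted p = 3.596e-06) from a mean under the background bound. CDC25A, the phosphatase that CHEK1 marks for destruction, rose by 1.74 (adjusted p = 1.667e-06). The clamp genes RAD9A, HUS1 and RAD1 and the mediator TOPBP1 did not pass.

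In crosslink repair outside the members, 3 of 11 were higher and 1 was lower. UBE2T, the conjugating enzyme that works with FANCL, read 5.01, 5.27 and 5.20 in control, 4.90, 5.20 and 4.93 with WT-HER2, and 7.67, 7.84 and 7.71 with Delta-HER2, a difference from control of 2.58 (5.98-fold, adjusted p = 3.595e-07). USP1, which removes the ubiquitin from FANCD2, rose by 0.82, while its cofactor WDR48 differed by -0.52. ERCC1, a subunit of a crosslink nuclease, rose by 0.56. The list of further recombination and resection genes had 2 of 12 higher, DNA2 by 1.04 and RAD51C by 0.89.

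Direct end joining had 5 of 13 higher and 0 lower, led by PRKDC, the catalytic subunit of the DNA-dependent protein kinase. PRKDC read 7.28, 7.48 and 7.50 in control, 7.32, 7.47 and 7.22 with WT-HER2, and 8.79, 8.80 and 8.87 with Delta-HER2, a difference of 1.40 (2.64-fold, adjusted p = 3.836e-06). XRCC6 and XRCC5, which encode the subunits of the Ku end-binding protein, rose by 0.61 and 0.48. RIF1, which acts with TP53BP1 at broken ends, rose by 0.61, and XRCC4, the partner of the end-joining ligase, by 0.59. Base excision repair outside the members had 6 of 17 higher and 3 lower. PARP1 and PARP2, the polymerases that mark nicked DNA with poly(ADP-ribose), rose by 1.01 and 1.27. NEIL1, XRCC1 and POLB were lower, with differences of -0.44, -0.28 and -0.66.

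Nucleotide excision repair, which removes bulky damage, had calls in both directions. Of 14 measured, 4 were lower and 3 higher against control, with a median difference of 0.13, and 3 were lower and 4 higher against WT-HER2, with a median of 0.16. The damage sensor XPC fell from 7.62, 7.64 and 7.85 in control to 6.86, 6.76 and 6.82, with 7.42, 7.57 and 7.38 in WT-HER2, a difference from control of -0.89 (adjusted p = 4.768e-05). DDB1, DDB2 and XPA were the other lower genes, at -0.59, -0.48 and -0.58. The higher genes were ERCC2, GTF2H3 and GTF2H4, subunits of the repair and transcription factor TFIIH, at 0.83, 0.90 and 0.38. Translesion synthesis had 2 of 10 higher, RAD18 by 0.86 and HLTF by 0.60, and 1 lower, the polymerase gene POLI at -0.53. In mismatch repair outside the members, 1 of 5 was higher, PMS1 by 0.64.

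**Figure D4:**
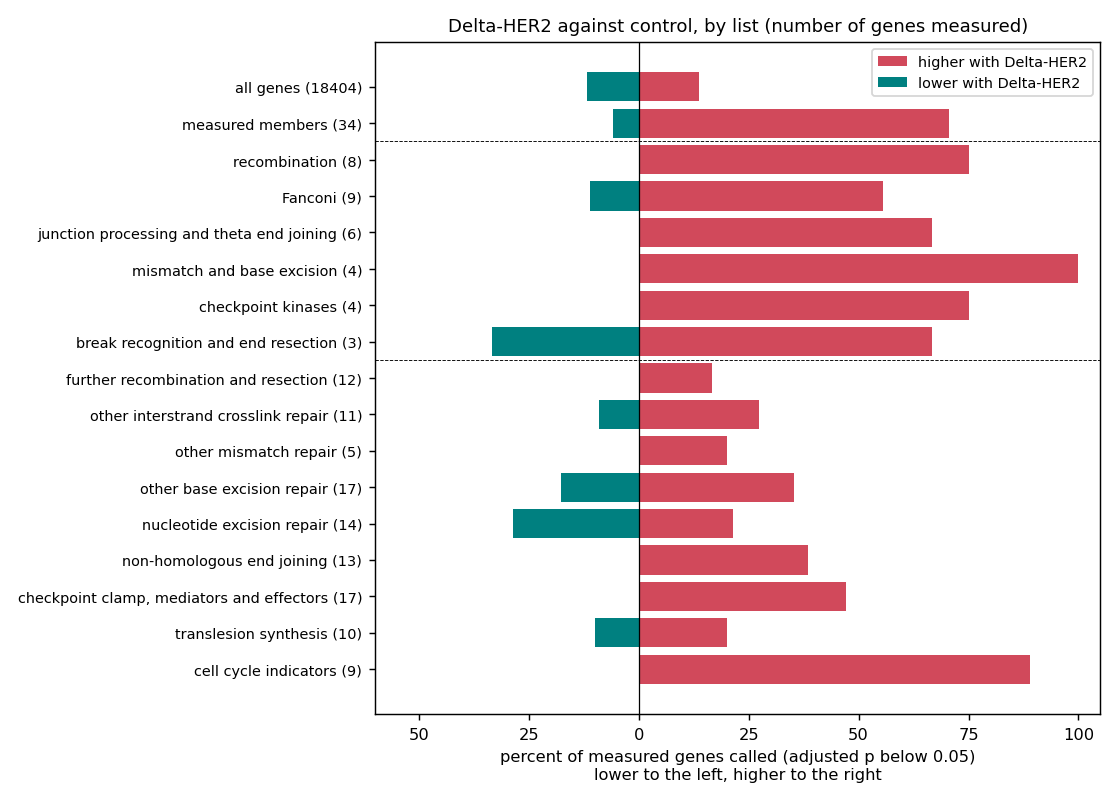
Percent of measured genes called higher (right, red) or lower (left, teal) with Delta-HER2 against control (x axis), for all genes, the 34 measured members, their 6 role groups, 8 other repair lists and 9 cell cycle indicators (y axis, number of genes measured in brackets). The members have 70.6% higher and 5.88% lower calls against 13.6% and 11.7% of all genes, and nucleotide excision repair has calls in both directions.

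The promoters of the members were read from RefSeq (GRCh38.p14), since most members moved together, over the 250 bases before each annotated start. Of the 39 members, 35 had a window. Each was searched on both strands for words of the E2F type, TTCCCGC or TTCGCGC or TTGCCGC or TTGGCGC, for CCAAT and for TTTGAA, a core of the cell cycle homology region. E2F factors are known to control many replication and repair genes. An E2F-type word was in a window of 11 of the 21 members with a window that rose (52.4%) and of 1 of the 9 that fell or did not pass (11.1%, FANCL), against 13.0% of 27305 genes and 10.9% of 35116 windows. CCAAT was in 57.1% of the former, 77.8% of the latter and 37.0% of all genes, and TTTGAA in 28.6%, 11.1% and 16.1%. The median G+C content was 60.8% for the members that rose, 62.0% for the others and 58.0% for all genes. A gene was counted if any of its windows held the word, so genes with more starts had more windows. The median number of starts was 1 in each set. Of the members that rose and held an E2F-type word, MSH6 had 4 starts. BRCA1, RAD54L, FANCC, RMI1 and UNG had 2 each, and of the 9 others only ATM had more than 1. These shares are a description over few genes, with no test, and a matching word does not show that a factor binds there.

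The stretches around the word in 5 members that rose are printed because they show the match and its distance from the start. Each is on the gene's own strand, 5′ to 3′, with the E2F-type word in capitals.
BLM: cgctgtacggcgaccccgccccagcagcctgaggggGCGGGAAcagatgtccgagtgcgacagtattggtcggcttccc
BRCA1: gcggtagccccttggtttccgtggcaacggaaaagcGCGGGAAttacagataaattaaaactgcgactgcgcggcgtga
RAD51AP1: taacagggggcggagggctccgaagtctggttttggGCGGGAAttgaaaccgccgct
EME1: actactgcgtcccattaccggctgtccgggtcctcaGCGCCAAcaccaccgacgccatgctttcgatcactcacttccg
RAD54L: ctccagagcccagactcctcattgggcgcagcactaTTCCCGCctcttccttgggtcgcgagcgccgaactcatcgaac

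These stretches lie at chr15:90717236-90717314 on the plus strand for BLM, chr17:43125369-43125447 on the minus strand for BRCA1, and chr12:4538833-4538889 on the plus strand for RAD51AP1. The stretch of EME1 is at chr17:50373113-50373191 and that of RAD54L at chr1:46247603-46247681, both on the plus strand. BLM, BRCA1 and RAD51AP1 share the word GCGGGAA, the reverse complement of TTCCCGC, which RAD54L holds in the forward direction. The word began 74 bases before the start in BLM, 47 in BRCA1, 21 in RAD51AP1 and 80 in EME1, and 49 or 124 bases before the 2 annotated starts of RAD54L. Members with large differences did not all hold such a word: the windows of EXO1, XRCC2, BRIP1 and POLQ had none, which says only that these letters are not in those 250 bases.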

How the data were processed

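RNA of 9 MCF10A samples was hybridised to Affymetrix whole-transcript arrays. The deposited values are log2 levels per transcript cluster, made by the authors with RMA (affy, R 2.14) per the submitters' processing notes; RMA subtracts background, quantile-normalizes the arrays and summarizes probes. Quantile normalization hides a shift shared by all genes. Array medians were 4.04 to 4.18.

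Of 32321 clusters, 19158 carried a single gene symbol, 1388 more than 1 and 11775 were unnamed here; a gene with several clusters (637 genes) took the one with the highest mean, which no measured member needed. The build of the array annotation is not given in the sources used here. limma 3.58.1 in R 4.3.3 fitted 1 coefficient per group on 18404 genes without a filter, with eBayes (prior 3.25 and residual 6 degrees of freedom, median SE 0.10) and Benjamini-Hochberg adjustment over all genes at 0.05. The number of arrays limits the precision. The fit was tested on simulated data.

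The members and lists were chosen with earlier results of these data known. All members were named; of each other list, up to 2 genes with the smallest p among those called, any called against the list's main direction, and, where given, counts of 5 or fewer in full. ERBB2 was the check of the labels. The clamp genes, TOPBP1, further cell cycle indicators and the markers that passed were named after their values were seen. Alternatives were quantile normalization, median centring, 2 filters, the mean of clusters, robust trended eBayes, only the groups compared, array weights, a replicate block and leaving out each array. Leaving out 2 arrays that stood apart was chosen after seeing the data.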

Additional observations from a re-analysis of the deposited data

How the results depend on the processing

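No called member changed direction under any alternative. In the comparisons with Delta-HER2, 26 members were called against each other group, and leaving out single arrays gave 20 to 27 against control and 23 to 27 against WT-HER2. Of all genes, leaving out single arrays called 3805 to 5097 against control and 3328 to 4381 against WT-HER2. With only genes of mean at least 5, 18 members were tested and 12 were called in each of these comparisons. Of these, 10 were higher against control and 11 against WT-HER2. Of all 8899 genes tested there, 4150 were called against control, 2220 of them higher. Against WT-HER2 3875 were called, 2282 of them higher. Calls lost under some alternative were CHEK1, CHEK2, FANCC, NBN, RAD54B and TP53BP1 against control, and CHEK1, PALB2 and RAD54B against WT-HER2. FANCM and PALB2 against control, and RMI1 and TP53BP1 against WT-HER2, passed under some. Folds of genes that start near background are limited by the array's floor.

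For WT-HER2 against control the count over all genes moved with several settings, and the cause was not tested. Array weights called 736 genes in place of 309 and 2 members in place of 0. Only the 2 groups compared gave 134 genes. Without the 2 arrays that stood apart, 294 genes and 2 members were called. Leaving out single arrays gave 126 to 279 genes and 0 to 1 members.

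The replicate numbers were not shown to pair the arrays: 1 of 9 arrays correlated best with its own number in another group. With the replicate number as a block, 139 genes were called for WT-HER2 against control and 0 members. In the comparisons with Delta-HER2, 24 members were called against each other group. Of all genes, 3979 were called against control and 3456 against WT-HER2 with this block.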
